A study of Mus musculus with 31 samples.

Results

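The set described here holds 10 genes of the canonical Wnt pathway: the receptors Lgr4, Lgr5 and Lgr6, the ubiquitin ligases Znrf3 and Rnf43, the feedback inhibitors Axin2 and Nkd1, the transcription factors Tcf7 and Lef1, and Ctnnb1, which encodes beta-catenin. They were taken by symbol from 3 count tables of 55487, 56980 and 56941 genes, and each symbol was found in every table. The choice was made because Lgr6 fell strongly when WT cells were moved from 2D to 3D culture, so the values of that contrast are given as a description.

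In the canonical pathway, a Wnt ligand bound to Frizzled and LRP receptors stops the destruction complex from marking beta-catenin for degradation, and beta-catenin then enters the nucleus and acts with TCF and LEF factors on target genes. ZNRF3 and RNF43 remove Frizzled receptors from the cell surface, and R-spondins bound to LGR4, LGR5 or LGR6 restrain these ligases. AXIN2, NKD1, ZNRF3, RNF43 and LGR5 are themselves widely used target genes, so transcripts of both positive and negative parts of the pathway can follow its activity.

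RNA sequencing covered 31 samples of Panc02 cells, a murine pancreatic adenocarcinoma line, in 11 groups. In the first table, WT spheroids grown in Matrigel were kept in control medium (Ctrl), in medium conditioned by unstimulated macrophages (M0-CM) or in medium from macrophages given IFNγ and LPS (M1-CM), with 3 samples each. The second table held WT and Cxcl5-/- cells in 2D and in 3D culture, with 3 samples each. The third, called the rescue table here, held only 3D cultures: WT (2 samples), Cxcl5-/- (2 samples), Hif1aOE Cxcl5-/- (3 samples) and MycOE Cxcl5-/- (3 samples). Cxcl5, which encodes a chemokine that attracts neutrophils, was disrupted with CRISPR and a lentiviral vector. The Hif1aOE and MycOE groups carried the same disruption plus a retroviral vector for a stabilized mutant of the hypoxia factor HIF1A or for MYC. The paper describes puromycin selection for cells infected for knockout and for overexpression alike. The labels do not say whether samples of one group came from separate cultures, so every p-value measures only the spread between these samples, which may be technical. In bulk samples, fewer cells of a type and less RNA per cell cannot be told apart.

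Total counts ranged from 41542533 to 78498230 per sample, and levels are given as CPM, the count per library scaled by edgeR with TMM. Cxcl5 transcript was at 45.6, 47.3 and 49.1 CPM in 2D WT and 37.4, 32.7 and 32.8 in 2D Cxcl5-/-. It was at 28.5, 24.5 and 28.0 CPM in 3D WT but 65.5, 40.9 and 45.4 in libraries labelled as 3D Cxcl5-/-, which goes against that label as far as transcript can show it, since a guide-made disruption can leave the transcript in place. In the rescue table Cxcl5 was at 64.2 and 67.7 CPM in WT and 36.6 and 40.2 in Cxcl5-/-. Hif1a was at 258, 296 and 243 CPM in Hif1aOE against 144 and 133 in Cxcl5-/- and 241 to 271 in MycOE, all below the 304 and 324 CPM of rescue WT. Myc was at 548, 525 and 397 CPM in MycOE against 22.3 and 20.0. The WT rescue libraries had a count for 43037 and 43048 genes, against 19448 to 31449 in the other libraries of the series, and 619 genes reached 10 counts in both of them and 3 or fewer in every other rescue library, at a median of 0.329 CPM. Of 8 ductal carcinoma markers, Epcam and Cdh1 were at 0 in both 2D groups and in Ctrl, M0-CM and M1-CM. Both were also at 0 in libraries labelled as 3D Cxcl5-/- and in MycOE. Both were detected in 3D WT and in the WT rescue libraries, and Epcam was at 0 in rescue Cxcl5-/- and Hif1aOE. The 8 markers summed to 547 to 593 CPM in 2D WT and 450 to 484.5 in 2D Cxcl5-/-. They summed to 854 to 1098 CPM in 3D WT, 218.5 to 238 in libraries labelled as 3D Cxcl5-/- and 278 to 476 in Ctrl. In the rescue table they summed to 857 to 904 CPM in WT, 288 to 303 in Cxcl5-/-, 707 to 839 in Hif1aOE and 268 to 313 in MycOE. The summed fibroblast markers (6 genes, which pancreatic tumour lines can also express) lay at 156 to 169 CPM in 3D WT and 396 to 453 in libraries labelled as 3D Cxcl5-/-. They lay at 171 to 185 CPM in 2D WT and 172 to 185 in 2D Cxcl5-/-. The WT spheroids of the first table held 458 to 555 CPM in Ctrl, 474 to 508 with M0-CM and 426 to 574 with M1-CM. Those sums were 77.0 to 81.4 CPM in rescue WT, 458 to 466 in Cxcl5-/-, 137 to 174 in Hif1aOE and 312 to 343 in MycOE, and their part in the results on the Wnt genes was not tested. The macrophage markers Itgam and Tyrobp were at 0 in all 3 conditioned media groups, and the 6 macrophage markers together reached at most 11.3 CPM in any library.

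The genes lie on 7 chromosomes of GRCm38, each as a protein-coding gene of the GENCODE M21 annotation. Lgr6 spans chr1:134983301-135105276 on the minus strand, Lgr4 chr2:109917647-110014257 on the plus strand and Lgr5 chr10:115450311-115587780 on the minus strand. Chromosome 11 holds 4 of the genes: Znrf3 at 5276324-5444847, Tcf7 at 52252371-52283014, Rnf43 at 87662722-87735539 and Axin2 at 108920349-108950783. Lef1 lies at chr3:131110471-131224356, Nkd1 at chr8:88521354-88594884 and Ctnnb1 at chr9:120929216-120960507. Reads of 3 genes could be shared with a neighbour if strand was not used in counting, which is not given in the sources used here: 13.7% of the exon bases of Lef1 overlap the antisense gene Gm43352, 14.6% of those of Ctnnb1 overlap Ulk4 on the opposite strand, and 3.8% of those of Axin2 overlap the antisense gene Gm11670.

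Upstream windows of 250 bases are shown for the receptors Lgr6 and Lgr4, which differed in how their levels changed between groups, and for the target gene Axin2. They come from RefSeq promoter windows on GRCm38.p6 and end at the base before the annotated start. Capitals mark GCGTG on either strand, the core of a hypoxia response element; CTTTGAT, the core that TCF and LEF factors bind, was searched for in the same way on both strands.
Lgr6 (chr1:135105277-135105526, minus strand): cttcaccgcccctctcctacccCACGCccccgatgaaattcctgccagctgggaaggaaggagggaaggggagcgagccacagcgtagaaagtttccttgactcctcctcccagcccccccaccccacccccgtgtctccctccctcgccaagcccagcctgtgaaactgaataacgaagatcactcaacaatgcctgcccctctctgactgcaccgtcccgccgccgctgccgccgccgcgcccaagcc
Lgr4 (chr2:109917397-109917646, plus strand): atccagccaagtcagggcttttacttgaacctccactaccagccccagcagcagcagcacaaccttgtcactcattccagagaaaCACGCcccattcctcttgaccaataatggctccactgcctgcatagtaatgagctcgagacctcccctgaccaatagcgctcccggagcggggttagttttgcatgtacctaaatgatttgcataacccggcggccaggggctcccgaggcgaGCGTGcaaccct
Axin2 (chr11:108920099-108920348, plus strand): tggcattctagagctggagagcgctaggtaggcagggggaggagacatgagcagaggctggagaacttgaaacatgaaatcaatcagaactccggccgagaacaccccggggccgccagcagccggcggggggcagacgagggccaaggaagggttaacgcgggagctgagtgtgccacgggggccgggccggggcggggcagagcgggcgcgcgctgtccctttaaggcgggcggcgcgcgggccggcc
RefSeq held 14 windows for 8 of the 10 genes, with no entry for Lgr5 or Znrf3. CTTTGAT was in 0 of these 14 windows and in 3.21% of 32851 windows of all genes, and GCGTG was in 6 of the 14 and in 28.2% of all. CACGTG, the E-box bound by MYC, which contains ACGTG, was in 1 of the 14, a window of Lef1, and in 6.02% of all, and ACGTG was in 1 of the 14, the same window, and in 16.6% of all. A match is a run of letters and not a bound site, and these motifs were chosen after the levels had been seen.

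Levels between genes were compared per kilobase of merged exon. In 2D WT, Ctnnb1 stood at 138 CPM per kb, followed by Lgr4 at 3.33, Znrf3 at 1.90, Lgr6 at 1.26, Rnf43 at 0.394, Axin2 at 0.317 and Tcf7 at 0.200 CPM per kb. Of these neighbours, Rnf43 and Axin2 overlapped between samples and the others did not. Lgr5, Nkd1 and Lef1 had no count in 2D WT. In 3D WT, Lgr6 fell to 0.0940 CPM per kb, the seventh level of the 10. In the rescue Cxcl5-/- libraries Znrf3, at 5.37 CPM per kb, stood above Lgr4 at 4.61, Axin2 at 1.66, Tcf7 at 1.32 and Lgr6 at 0.774.

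**Figure D1:**
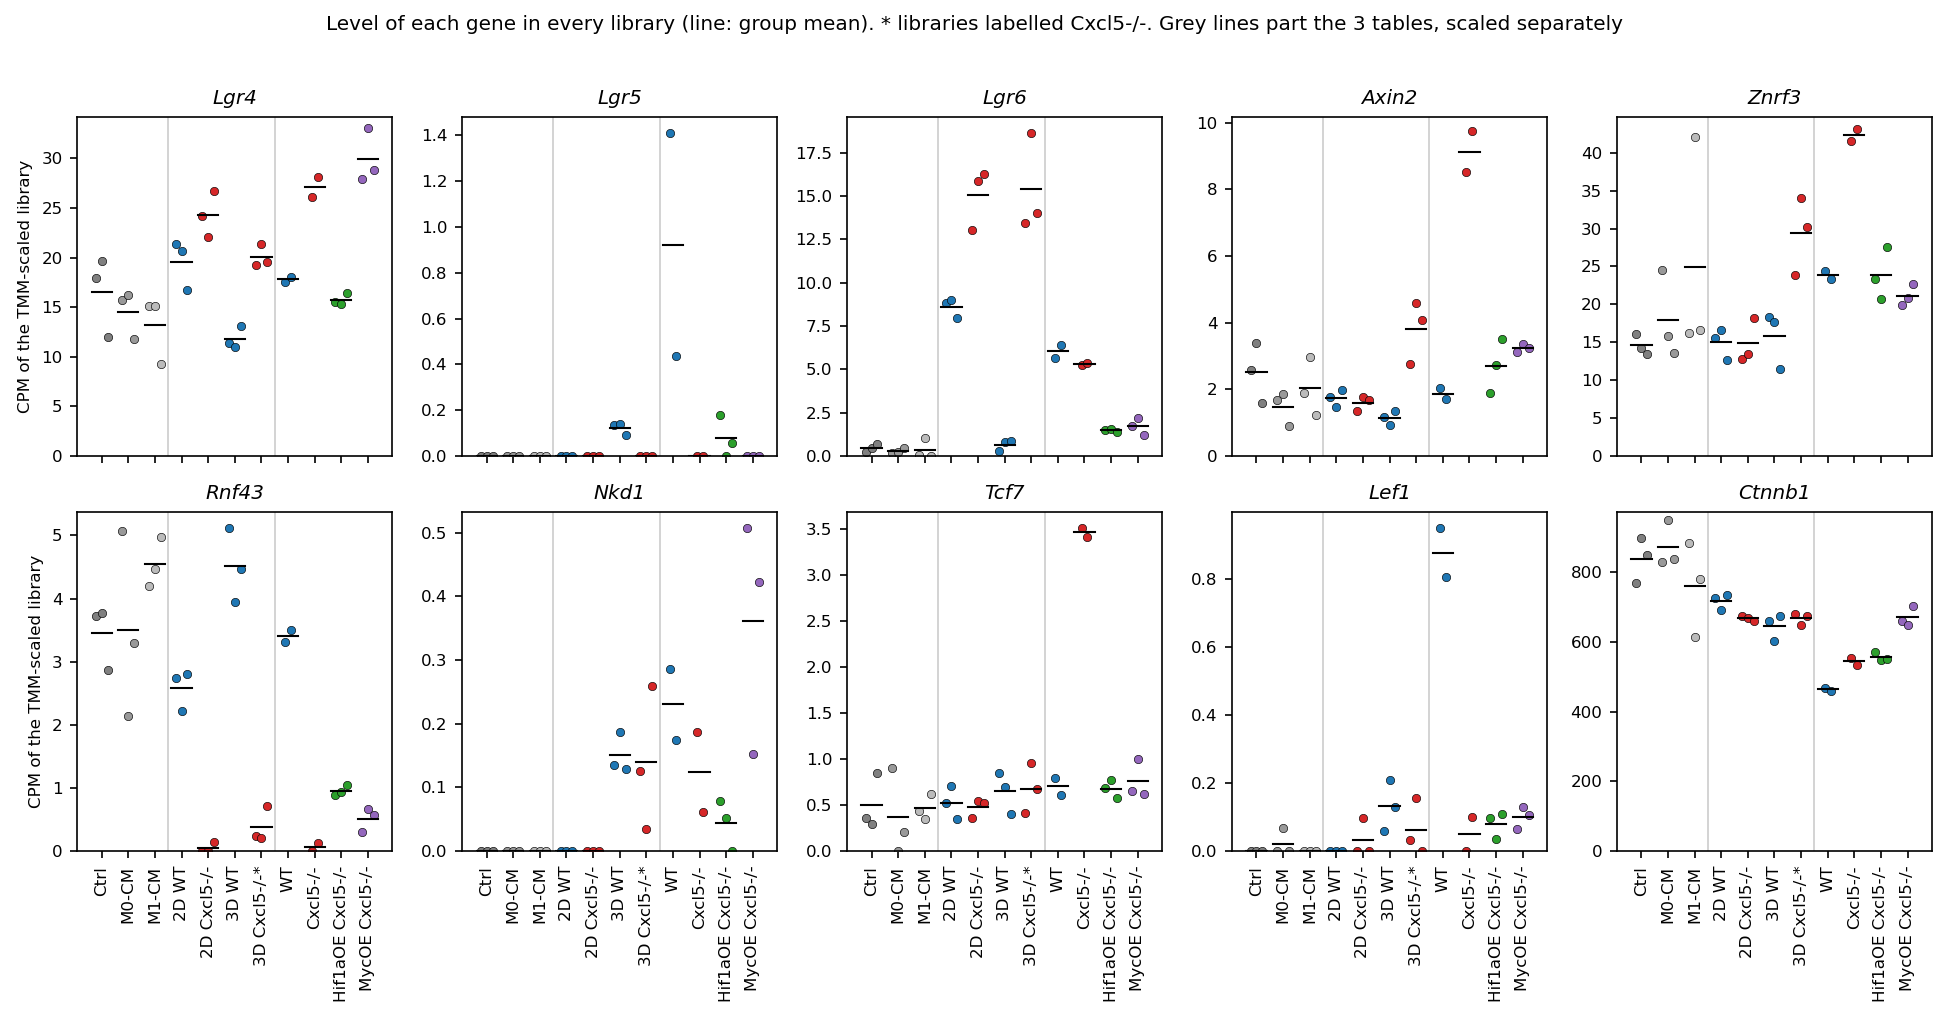
CPM of each of the 10 genes (1 panel a gene) in every sample, with groups along the horizontal axis, 1 point a sample and a bar at each group mean, and the 3 tables scaled separately. Lgr6 sits at 0.271 to 0.867 CPM in 3D WT against 7.98 to 9.01 in 2D WT, and Rnf43 sits at or near 0 in 2D Cxcl5-/- and rescue Cxcl5-/-.

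The first contrast asked how WT cells differed between 3D and 2D culture. Lgr6 was at 8.80, 9.01 and 7.98 CPM in 2D WT and at 0.271, 0.794 and 0.867 CPM in 3D WT, from 14, 34 and 47 counts. All 3D WT samples lay below all 2D WT samples, and the mean was 13.4-fold lower. Lgr4, the most abundant of the LGR receptors per kilobase in every group, was at 21.3, 20.7 and 16.7 CPM in 2D WT and 11.4, 10.9 and 13.1 in 3D WT, again with no overlap. Lgr5, the intestinal stem cell receptor, had 0 counts in all 2D libraries and 7, 6 and 5 counts in 3D WT. Of the 7 genes with enough counts, 2 passed an adjusted p of 0.05, Lgr4 with a log2 fold change of -0.73 and Lgr6 with -3.74, beside 44.3% of all 21367 genes tested (22.2% up, 22% down). Without 3D WT replicate 1, 4 genes passed it. Because this contrast chose the set, nothing is read from that count. Groups did not overlap for 54.3% of all genes tested in this contrast and 26.1% in 2D Cxcl5-/- against 2D WT. The share was 64.8% in libraries labelled as 3D Cxcl5-/- against 2D Cxcl5-/- and 54.4% against 3D WT. It was 80.9% in rescue Cxcl5-/- against WT, 56.7% in Hif1aOE and 58.5% in MycOE against Cxcl5-/-. It was 31.3% in MycOE against Hif1aOE and 8.49% in M1-CM against Ctrl.

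Among the other genes of the set, Axin2 was at 1.77, 1.48 and 1.99 CPM in 2D WT and 1.16, 0.934 and 1.35 in 3D WT. Rnf43 was at 2.74, 2.22 and 2.81 CPM in 2D WT and 5.12, 3.95 and 4.46 in 3D WT. Both pairs of groups were apart, Axin2 with the lower values in 3D and Rnf43 with the higher. Znrf3 overlapped between 2D WT (12.7 to 16.6 CPM) and 3D WT (11.4 to 18.3 CPM), as did Tcf7. Ctnnb1 ranged from 692 to 735 CPM in 2D WT and from 603 to 675 in 3D WT. Nkd1, an inhibitor that binds Dishevelled, had no count in 2D WT and 0.136, 0.187 and 0.129 CPM in 3D WT, and Lef1 had no count in 2D WT and 0.0582, 0.210 and 0.129 CPM in 3D WT.

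The same change of culture in the disrupted cells took no part in the choice of the genes. Lgr6 was at 13.1, 15.9 and 16.3 CPM in 2D Cxcl5-/- and at 13.5, 18.7 and 14.0 CPM in libraries labelled as 3D Cxcl5-/-. The groups overlapped, and the log2 fold change was 0.03 (95% interval -0.46 to 0.51, adjusted p = 0.924 by edgeR's quasi-likelihood test with Benjamini-Hochberg adjustment), a value that turned to -0.05 without 2D Cxcl5-/- replicate 1 and to -0.12 without 3D Cxcl5-/- replicate 2. Lgr4 was at 24.2, 22.1 and 26.7 CPM in 2D Cxcl5-/- and 19.2, 21.3 and 19.6 in libraries labelled as 3D Cxcl5-/-. These did not overlap, but the log2 fold change of -0.28 (SE 0.116) missed the threshold at an adjusted p of 0.0533, and passed it without 2D Cxcl5-/- replicate 2 (-0.37, adjusted p = 0.0314).

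In this comparison 3 of the 7 genes tested rose and 0 fell, beside 57% of all genes called in either direction (28.7% up, 28.2% down). Axin2, the scaffold of the destruction complex that Wnt signalling induces, was at 1.35, 1.75 and 1.66 CPM in 2D Cxcl5-/- and at 2.76, 4.58 and 4.09 in libraries labelled as 3D Cxcl5-/-. It rose without overlap, 2.40-fold by the means (log2 fold change 1.26 ± 0.234 SE, edgeR adjusted p = 0.000421). Znrf3 was at 12.8, 13.4 and 18.3 CPM in 2D Cxcl5-/- and 23.8, 34.0 and 30.2 in libraries labelled as 3D Cxcl5-/-. It also rose without overlap, 1.98-fold (log2 fold change 0.98 ± 0.195 SE, edgeR adjusted p = 0.000704). Rnf43, the partner ligase of Znrf3, had 0, 0 and 9 counts in 2D Cxcl5-/- and 15, 12 and 47 counts in libraries labelled as 3D Cxcl5-/-. It rose with a log2 fold change of 3.02 (± 0.784 SE, edgeR adjusted p = 0.0047) from very few counts, and without 2D Cxcl5-/- replicate 3, the sample that held all counts of its group, the fitted value was 7.57. Tcf7 overlapped between 2D Cxcl5-/- (0.356 to 0.547 CPM) and the libraries labelled as 3D Cxcl5-/- (0.410 to 0.953 CPM). Ctnnb1 lay at 661 to 674 CPM in 2D Cxcl5-/- and 648 to 679 in libraries labelled as 3D Cxcl5-/-. Nkd1 was too low for the filter, at 0 counts in 2D Cxcl5-/- and 0.126, 0.0347 and 0.260 CPM in libraries labelled as 3D Cxcl5-/-. The mean of the latter was at least 3.03-fold higher against the floor of 3 counts per library, although its replicate 2 held 2 counts. Without 2D Cxcl5-/- replicate 2, the count of genes called rose to 5 through Lgr4 and Nkd1, the latter kept by the filter only through its 3D libraries.

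The comparison of genotypes in 3D culture set libraries labelled as 3D Cxcl5-/- against 3D WT. It shares the 3D WT libraries with the contrast that chose Lgr6, so Lgr6 is described and not tested in it. Lgr6 in libraries labelled as 3D Cxcl5-/- (13.5 to 18.7 CPM) stood 23.9-fold above 3D WT (0.271 to 0.867 CPM) by the means. In 2D culture, Lgr6 was 1.75-fold higher in Cxcl5-/- (13.1 to 16.3 CPM) than in WT (7.98 to 9.01 CPM). The order of Lgr6 in the table was thus 3D WT, 2D WT and then both Cxcl5-/- groups, of which only the last pair overlapped.

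Of the other 9 genes, 6 were tested in 3D, and 3 were higher and 1 lower in libraries labelled as 3D Cxcl5-/- than in 3D WT, beside 45% of all genes called (19.7% up, 25.3% down). Axin2 (2.76 to 4.58 CPM against 0.934 to 1.35) was 3.32-fold higher, with a log2 fold change of 1.72 (± 0.242 SE, edgeR adjusted p = 6.36e-05). Lgr4 (19.2 to 21.3 CPM against 10.9 to 13.1) was 1.70-fold higher, with a log2 fold change of 0.76 (± 0.118 SE, edgeR adjusted p = 0.000148). Znrf3 (23.8 to 34.0 CPM against 11.4 to 18.3) was 1.86-fold higher, with a log2 fold change of 0.90 (± 0.195 SE, edgeR adjusted p = 0.00208). Rnf43 went the other way: it was at 5.12, 3.95 and 4.46 CPM in 3D WT and at 0.237, 0.208 and 0.718 CPM in libraries labelled as 3D Cxcl5-/-, 11.6-fold lower by the means (log2 fold change -3.52 ± 0.557 SE, edgeR adjusted p = 0.000176). So the paired ligases moved in opposite directions, with the groups apart for each. Tcf7 overlapped (0.406 to 0.853 CPM in 3D WT, 0.410 to 0.953 in libraries labelled as 3D Cxcl5-/-), with a log2 fold change of 0.05 (95% interval -0.83 to 0.94), which turned to -0.23 without 3D WT replicate 3 or without 3D Cxcl5-/- replicate 2. Ctnnb1 overlapped too, at 603 to 675 CPM against 648 to 679. Lgr5 had 7, 6 and 5 counts in 3D WT and 0 in all libraries labelled as 3D Cxcl5-/-, while Lef1 and Nkd1 overlapped at under 0.3 CPM. These 3 genes were below the filter and not tested.

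In 2D culture, 1 of the 6 genes tested differed between genotypes, beside 7.03% of all genes (3.86% up, 3.17% down). Rnf43 had 2.74, 2.22 and 2.81 CPM in 2D WT and 0, 0 and 0.139 CPM in 2D Cxcl5-/-, where the last value came from 9 counts. The groups were far apart, 56.0-fold by the means, and Rnf43 fell with a log2 fold change of -5.74 (± 0.717 SE, edgeR adjusted p = 0.000163), which was -10.27 without 2D Cxcl5-/- replicate 3, when the group was at 0. Axin2 overlapped (1.48 to 1.99 CPM in WT, 1.35 to 1.75 in Cxcl5-/-), with a log2 fold change of -0.14 (adjusted p = 0.861 by edgeR). Lgr4 lay at 16.7 to 21.3 CPM in 2D WT and 22.1 to 26.7 in 2D Cxcl5-/-, apart but not called (log2 fold change 0.31, adjusted p = 0.147 by edgeR). Znrf3 overlapped at 12.7 to 16.6 and 12.8 to 18.3 CPM.

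Whether the genotypes differed more in 3D than in 2D was tested with the interaction term, which called 2 of 6 genes, both in the positive direction, beside 27.2% of all genes (11.1% up, 16.1% down). For Axin2 the genotype difference was larger in 3D by 1.86 on the log2 scale (± 0.336 SE, edgeR adjusted p = 0.00123). For Znrf3 it was larger by 0.91 (± 0.275 SE, edgeR adjusted p = 0.0262). The Znrf3 call was lost when any of 7 libraries was left out: 2D WT replicate 1 (adjusted p = 0.0652) or 2 (0.0769), 2D Cxcl5-/- replicate 1 (0.0544) or 2 (0.0776), 3D WT replicate 3 (0.0683), or 3D Cxcl5-/- replicate 2 (0.0515) or 3 (0.0653), with values of 0.67 to 0.86. Lgr4 had an interaction of 0.45 (± 0.165 SE, edgeR adjusted p = 0.0600), called without 2D WT replicate 3 (adjusted p = 0.0360) or without 2D Cxcl5-/- replicate 3 (0.0440). For Rnf43 the interaction was 2.22 (± 0.939 SE, edgeR adjusted p = 0.0976), and without 2D Cxcl5-/- replicate 3 it was 6.78 and called (adjusted p = 0.004). DESeq2's Wald test called 4 of the genes, Lgr4 and Rnf43 included.

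**Figure D2:**
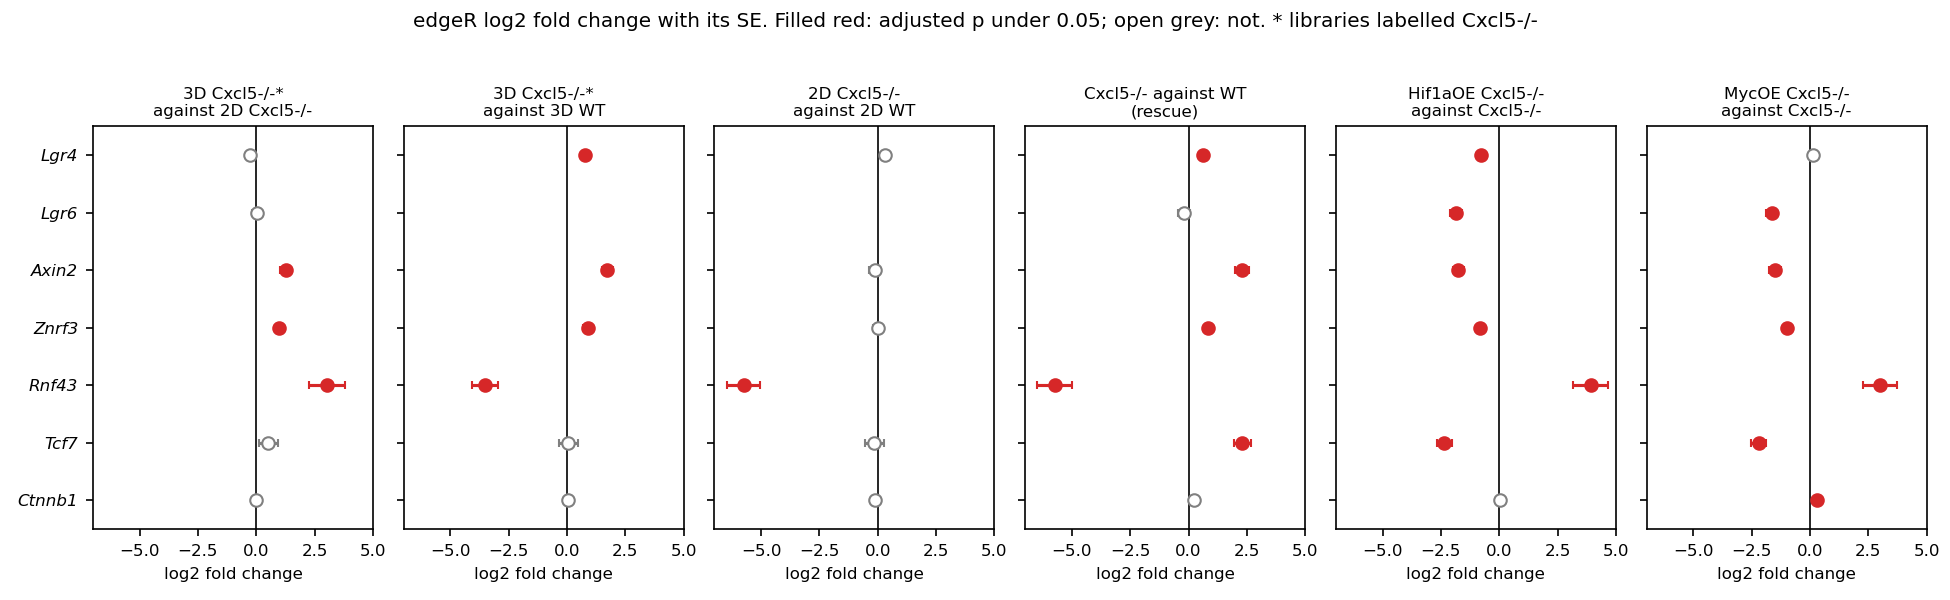
Log2 fold change with its standard error for 7 genes of the set in 6 comparisons (1 panel a comparison), filled red where an adjusted p of 0.05 was passed and open otherwise, with Lgr6 left out of the 2 panels against 2D WT and 3D WT, whose libraries were used to choose it. Axin2 and Znrf3 lie to the right of 0 in rescue Cxcl5-/- against WT (2.29 and 0.83) and to the left in Hif1aOE (-1.75 and -0.83) and MycOE (-1.50 and -1.0) against Cxcl5-/-.

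The rescue table compared Cxcl5-/- with WT in 3D a second time, with 2 samples a group. All 10 genes passed the filter on low counts here, but Lgr5 and Lef1 passed it only through the WT libraries, where they are high, so that any difference of theirs from WT had its direction fixed. Of the other 8 genes, 4 were higher and 1 lower in Cxcl5-/- (4 and 3 of 10 with Lgr5 and Lef1), beside 41.9% of all genes (17.6% up, 24.3% down). That share is over 28730 genes, which include genes that passed the filter only through WT. Without any 1 of the 4 libraries, the count over the 10 genes was 5 or 6, against 7. Among the receptors, Lgr6 was at 5.65 and 6.41 CPM in WT and at 5.25 and 5.36 CPM in Cxcl5-/-. The ranges did not overlap, but the log2 fold change of -0.18 (95% interval -0.76 to 0.39, adjusted p = 0.591 by edgeR) was within the error. The WT level here was thus above that of the 3D WT libraries of the second table (0.271 to 0.867 CPM) and of the Ctrl spheroids (0.242 to 0.679 CPM), although the tables were scaled separately and no test was made across them. Lgr4 was at 17.5 and 18.1 CPM in WT and 26.1 and 28.1 in Cxcl5-/-, 1.52-fold higher without overlap (log2 fold change 0.61 ± 0.109 SE, edgeR adjusted p = 0.0011).

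Lgr5 had 64 and 20 counts in rescue WT (1.41 and 0.435 CPM) and 0 in both Cxcl5-/- libraries, at least 15.0-fold lower than the WT mean against a floor of 3 counts per library. Lef1, a partner of beta-catenin on DNA, had 43 and 37 counts in WT (0.949 and 0.804 CPM) and 0 and 5 counts in Cxcl5-/-, 17.3-fold lower by the means. Because both genes passed the filter only through WT, these values are a description and no test of theirs is reported. The 619 other genes seen at low counts in these WT libraries and not in the rest of the rescue table had a median of 0.329 CPM and a 90th percentile of 0.527 CPM, and the part of such low counts in these results was not tested.

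Among the inhibitors, Axin2 was at 2.03 and 1.70 CPM in rescue WT and 8.53 and 9.75 CPM in Cxcl5-/-. It was 4.91-fold higher without overlap (log2 fold change 2.29 ± 0.281 SE, edgeR adjusted p = 7.45e-05). Znrf3 was at 24.4 and 23.3 CPM in WT and 41.5 and 43.2 in Cxcl5-/-, 1.77-fold higher (log2 fold change 0.83 ± 0.129 SE, edgeR adjusted p = 0.000431). Rnf43 was at 3.31 and 3.50 CPM in WT and had 0 and 6 counts in Cxcl5-/- (0 and 0.122 CPM), 55.9-fold lower by the means (log2 fold change -5.74 ± 0.760 SE, edgeR adjusted p = 0.000131). Without Cxcl5-/- replicate 2, which held all 6 of those counts, the value for Rnf43 was -10.41. Znrf3 and Rnf43 thus again moved in opposite directions. Nkd1 overlapped, at 0.287 and 0.174 CPM in WT and 0.187 and 0.0609 in Cxcl5-/-.

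Tcf7, which encodes the transcription factor TCF1, was at 0.794 and 0.609 CPM in rescue WT and 3.51 and 3.41 in Cxcl5-/-. It was 4.93-fold higher without overlap (log2 fold change 2.30 ± 0.366 SE, edgeR adjusted p = 0.00049), whereas it overlapped between the genotypes in 3D of the second table (log2 fold change 0.05). That difference between tables was not tested. Ctnnb1 was at 469 and 460 CPM in WT and 553 and 535 in Cxcl5-/-, a log2 fold change of 0.23 (SE 0.0852) that missed the threshold at an adjusted p of 0.0507.

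The overexpression lines were each compared with the same 2 rescue Cxcl5-/- libraries, so the results share their control. In Hif1aOE, 1 of the 8 genes that passed the filter without the help of WT rose and 5 fell, beside 35.5% of all genes (20.5% up, 15% down), and in MycOE 2 rose and 4 fell, beside 39.6% (21.6% up, 18% down). These counts were also 6 and 6 with both rescue WT libraries left out of the fit, an alternative chosen after seeing the data. In that fit, 10025 of all 23309 genes tested were called in Hif1aOE (5756 up, 4269 down) and 11198 in MycOE (6124 up, 5074 down). The shares of 35.5% and 39.6% are over 28730 genes, which include genes that passed the filter only through WT. Lgr6 was at 5.25 and 5.36 CPM in Cxcl5-/-, at 1.49, 1.54 and 1.39 CPM in Hif1aOE and at 1.73, 2.17 and 1.20 CPM in MycOE. Every overexpression sample lay below both Cxcl5-/- samples, and the overexpression groups overlapped each other. Lgr6 fell 3.60-fold in Hif1aOE (log2 fold change -1.85 ± 0.244 SE, edgeR adjusted p = 0.000121) and 3.12-fold in MycOE (-1.64 ± 0.243 SE, adjusted p = 0.000225).

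Lgr4 differed between the lines. It was at 26.1 and 28.1 CPM in Cxcl5-/-, 15.5, 15.3 and 16.4 in Hif1aOE, and 27.9, 33.0 and 28.9 in MycOE. Hif1aOE lay below both other groups, and MycOE overlapped Cxcl5-/-. Lgr4 fell in Hif1aOE (log2 fold change -0.78 ± 0.0975 SE, edgeR adjusted p = 7.94e-05) and was not called in MycOE (0.14, adjusted p = 0.267, and -0.19 with library totals in place of TMM scaling). The direct comparison of MycOE with Hif1aOE gave 0.93 for Lgr4 (± 0.0888 SE, edgeR adjusted p = 2.67e-05). Lgr5 had 9, 0 and 3 counts in Hif1aOE and 0 in MycOE and Cxcl5-/-.

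Axin2 was at 8.53 and 9.75 CPM in rescue Cxcl5-/-, 1.88, 2.73 and 3.51 in Hif1aOE and 3.11, 3.35 and 3.24 in MycOE. It fell in both lines without overlap, 3.38-fold in Hif1aOE (log2 fold change -1.75 ± 0.239 SE, edgeR adjusted p = 0.000154) and 2.83-fold in MycOE (-1.50 ± 0.239 SE, adjusted p = 0.000386). Znrf3 was at 41.5 and 43.2 CPM in Cxcl5-/-, 23.4, 20.7 and 27.6 in Hif1aOE and 19.9, 20.9 and 22.6 in MycOE. It fell 1.77-fold in Hif1aOE (log2 fold change -0.83 ± 0.116 SE, edgeR adjusted p = 0.000184) and 2.00-fold in MycOE (-1.0 ± 0.116 SE, adjusted p = 3.54e-05), without overlap in either. The rescue WT libraries, for comparison by value only, held Axin2 at 2.03 and 1.70 CPM and Znrf3 at 24.4 and 23.3 CPM.

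Rnf43 had 0 and 6 counts in rescue Cxcl5-/- and reached 0.882, 0.944 and 1.05 CPM in Hif1aOE and 0.296, 0.674 and 0.564 CPM in MycOE. Both lines lay above Cxcl5-/- in every sample, and both lay below the 3.31 and 3.50 CPM of rescue WT. Rnf43 rose with a log2 fold change of 3.91 in Hif1aOE (± 0.730 SE, edgeR adjusted p = 0.00138) and 3.01 in MycOE (± 0.742 SE, adjusted p = 0.00699), values that were 8.60 and 7.70 without Cxcl5-/- replicate 2. Nkd1 was at 0.0784, 0.0524 and 0 CPM in Hif1aOE and 0.508, 0.152 and 0.423 in MycOE, and was called in neither line.

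Tcf7 was at 3.51 and 3.41 CPM in rescue Cxcl5-/-, 0.686, 0.769 and 0.578 in Hif1aOE and 0.656, 1.00 and 0.617 in MycOE. It fell 5.10-fold in Hif1aOE (log2 fold change -2.35 ± 0.317 SE, edgeR adjusted p = 0.000144) and 4.57-fold in MycOE (-2.19 ± 0.317 SE, adjusted p = 0.000189), and the lines overlapped each other. Lef1 stayed at 0 to 0.130 CPM in all 3 groups. Ctnnb1 was at 553 and 535 CPM in Cxcl5-/-, 571, 548 and 552 in Hif1aOE and 659, 649 and 703 in MycOE. It was 1.23-fold higher in MycOE, with a log2 fold change of 0.30 (± 0.0783 SE, edgeR adjusted p = 0.00948), but the value was -0.03 with library totals, and the call was lost without Cxcl5-/- replicate 1 (adjusted p = 0.0572) or replicate 2 (0.104).

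Between the lines themselves, MycOE against Hif1aOE, 2 genes were called, both higher in MycOE, beside 19.3% of all genes (9.54% up, 9.73% down). These were Lgr4 and Ctnnb1, the latter at 0.27 on the log2 scale (± 0.0696 SE, edgeR adjusted p = 0.0193), which lost its call without MycOE replicate 3 (0.23, adjusted p = 0.0521), when the count was 1, and with library totals (0.15). For Axin2 the difference was 0.26 (95% interval -0.23 to 0.74), for Znrf3 -0.17 (-0.41 to 0.06) and for Rnf43 -0.90 (-1.96 to 0.16). These intervals include 0 and do not show that the lines acted alike.

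The conditioned media had no called effect on the genes of the set. Of the 7 genes tested, 0 were called in M1-CM against Ctrl, beside 0.0156% of all genes, 0 in M1-CM against M0-CM, beside 0.0156%, and 0 in M0-CM against Ctrl, beside 0%. At an unadjusted p under 0.05, edgeR found 0 in each, and DESeq2 called 0 in each. Lgr6 was at 0.242, 0.432 and 0.679 CPM in Ctrl, 0.161, 0.234 and 0.461 with M0-CM and 0.0480, 1.05 and 0 with M1-CM. The M1-CM samples spanned both ends of that range, from 0 to 51 counts. Znrf3 was at 16.1, 14.3 and 13.4 CPM in Ctrl, 24.5, 15.8 and 13.6 with M0-CM and 16.2, 42.1 and 16.6 with M1-CM, where replicate 2 stood apart from the other two. Axin2 ranged from 1.58 to 3.39 CPM in Ctrl, 0.888 to 1.87 with M0-CM and 1.23 to 2.97 with M1-CM. Rnf43 was at 2.87 to 3.77 CPM in Ctrl and 4.19 to 4.98 with M1-CM, apart but not called. Lgr4 lay at 9.23 to 19.6 CPM and Ctnnb1 at 614 to 949 CPM over the 9 samples, Tcf7 at 0 to 0.907 CPM, and Lgr5 and Nkd1 had no count.

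By the measure of likeness used here, the root mean square difference of log2 CPM centred on the mean of each gene over the 12 samples of the second table, the 5 genes closest to Lgr6 among 14442 were Nwd1 (0.754), Fam180a (0.828), Plin4 (0.838), Ccdc88c (0.894) and Matn3 (0.930), against a median of 1.99 over all genes compared. Each had its lowest group mean in 3D WT. Nwd1 was at 6.81 CPM in 2D WT, 0.972 in 3D WT, 7.49 in 2D Cxcl5-/- and 12.2 in libraries labelled as 3D Cxcl5-/-. Plin4, which encodes a lipid droplet protein, was at 23.0, 4.88, 78.3 and 152 CPM in the same order. These genes were picked by their likeness, so their values are a description.

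**Figure D3:**
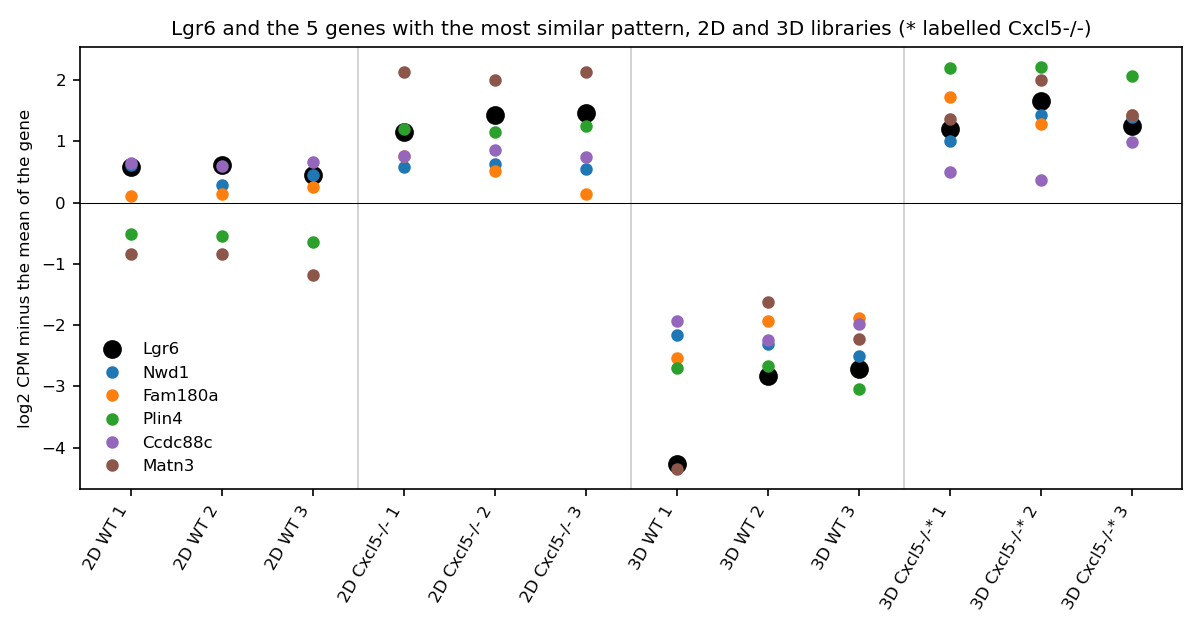
Log2 CPM minus the gene mean for Lgr6 (large black points) and the 5 genes most like it in the 12 libraries of the second table, along the horizontal axis by group. All 6 genes lie below 0 in the 3 libraries of 3D WT and above 0 in the 3 libraries labelled as 3D Cxcl5-/-.

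The other genes of the pathway were followed in 8 lists with 93 genes in all, of which 59 were tested in the second table and 78 in the rescue table. Any gene that passed the filter only through the rescue WT libraries had its direction against WT fixed. The rescue counts, medians and shares below include such genes. The list of secreted and surface inhibitors had 4 tested genes in the second table. In the rescue table it had 12, with a median log2 fold change of -6.51 in Cxcl5-/- against WT. Where Axin2 and Znrf3 were higher, more list genes were higher than lower: 29 rose and 13 fell in libraries labelled as 3D Cxcl5-/- against 3D WT (median log2 fold change 0.33, all genes -0.04), beside 45% of all genes called (19.7% up, 25.3% down), and 32 rose and 14 fell in rescue Cxcl5-/- against WT (median 0.17, all genes -0.30), beside 41.9% (17.6% up, 24.3% down). In Hif1aOE against Cxcl5-/-, 9 rose and 31 fell (median -0.28, all genes 0.16), beside 35.5% (20.5% up, 15% down), and in MycOE 10 rose and 33 fell (median -0.39, all genes 0.11), beside 39.6% (21.6% up, 18% down). In the disrupted cells moved from 2D to 3D, 26 rose and 17 fell (median 0.03, all genes 0.11), beside 57% (28.7% up, 28.2% down). In 2D Cxcl5-/- against 2D WT 9 rose and 7 fell, beside 7.03%. The interaction term called 19 genes up and 7 down, beside 27.2% of all genes (11.1% up, 16.1% down).

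Wnt ligands changed in both directions. Against 3D WT, Wnt9a was higher in libraries labelled as 3D Cxcl5-/- (4.98 ± 0.129 CPM against 1.43 ± 0.123, SD, n = 3, log2 fold change 1.80) and Wnt7b lower (12.1 ± 0.757 CPM against 77.1 ± 17.4, log2 fold change -2.67). The rescue table gave 1.56 for Wnt9a and -2.18 for Wnt7b in Cxcl5-/- against WT. Wnt7b then rose in Hif1aOE (log2 fold change 1.80) and fell further in MycOE (-1.71), while Wnt9a fell in Hif1aOE (-1.48). In MycOE, Wnt5b (4.08) and Wnt6 (1.87) rose. Of the 4 R-spondins, the ligands of the LGR receptors, 0 had enough counts in the second table and 2 in the rescue table, and their changes are not described.

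Receptors and co-receptors included 13 tested genes in both tables. Of these, 7 were higher and 2 lower in libraries labelled as 3D Cxcl5-/- than in 3D WT, beside 45% of all genes called, and 9 were higher and 1 lower in rescue Cxcl5-/- than in WT, beside 41.9%. Fzd4 was among those higher in both (log2 fold changes 1.64 and 1.89) and fell in Hif1aOE (-1.64), and Fzd7 was lower in both (-1.43 and -0.63). The co-receptor gene Lrp5 rose in the disrupted cells from 2D to 3D, from 1.31 ± 0.132 to 21.0 ± 5.32 CPM (log2 fold change 4.0), and rose in MycOE (2.51) and Hif1aOE (0.73). Wls, whose product carries Wnt ligands to the cell surface, was at 300 ± 6.49 CPM in rescue WT and 1079 ± 9.89 in Cxcl5-/- (SD, n = 2), and fell in Hif1aOE (-1.53) and MycOE (-1.05). Among the inhibitors, Apcdd1 fell from 194 ± 17.8 CPM in rescue Cxcl5-/- to 38.2 ± 2.51 in Hif1aOE (log2 fold change -2.35) and to 4.84 ± 0.665 in MycOE (-5.33).

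In the destruction complex and Dishevelled list, 6 of 13 genes were higher in rescue Cxcl5-/- and 1 lower, beside 41.9% of all genes called, and 8 of 13 fell in MycOE, beside 18% of all genes lower. Tnks, whose product marks AXIN proteins for degradation, was at 71.8 ± 4.35 CPM in rescue WT and 485 ± 0.332 in Cxcl5-/- (log2 fold change 2.76), and fell in Hif1aOE (-2.50) and MycOE (-2.06). Tnks was also higher in libraries labelled as 3D Cxcl5-/- than in 3D WT (1.71). Tnks2, in the same list, went the other way there (-0.30, 364.3 against 449.5 CPM) and rose in Hif1aOE (0.30). Among the nuclear partners of beta-catenin, Tcf7l2, a TCF factor, was higher in the same comparisons (1.57 in the second table and 2.35 in the rescue table) and fell in both overexpression lines (-1.91 in each). The further target genes were split: Ephb3 (1.06 and 1.91) and Ccn4 (0.90 and 1.87) were higher in Cxcl5-/- in both tables, and Ccnd1 (-1.25 and -1.63) and Cd44 (-0.86 and -1.77) were lower. Each of these log2 fold changes passed an adjusted p of 0.05 by edgeR with groups that did not overlap. Over all genes tested, groups did not overlap for 54.4% in libraries labelled as 3D Cxcl5-/- against 3D WT. That share was 80.9% in rescue Cxcl5-/- against WT.

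**Figure D4:**
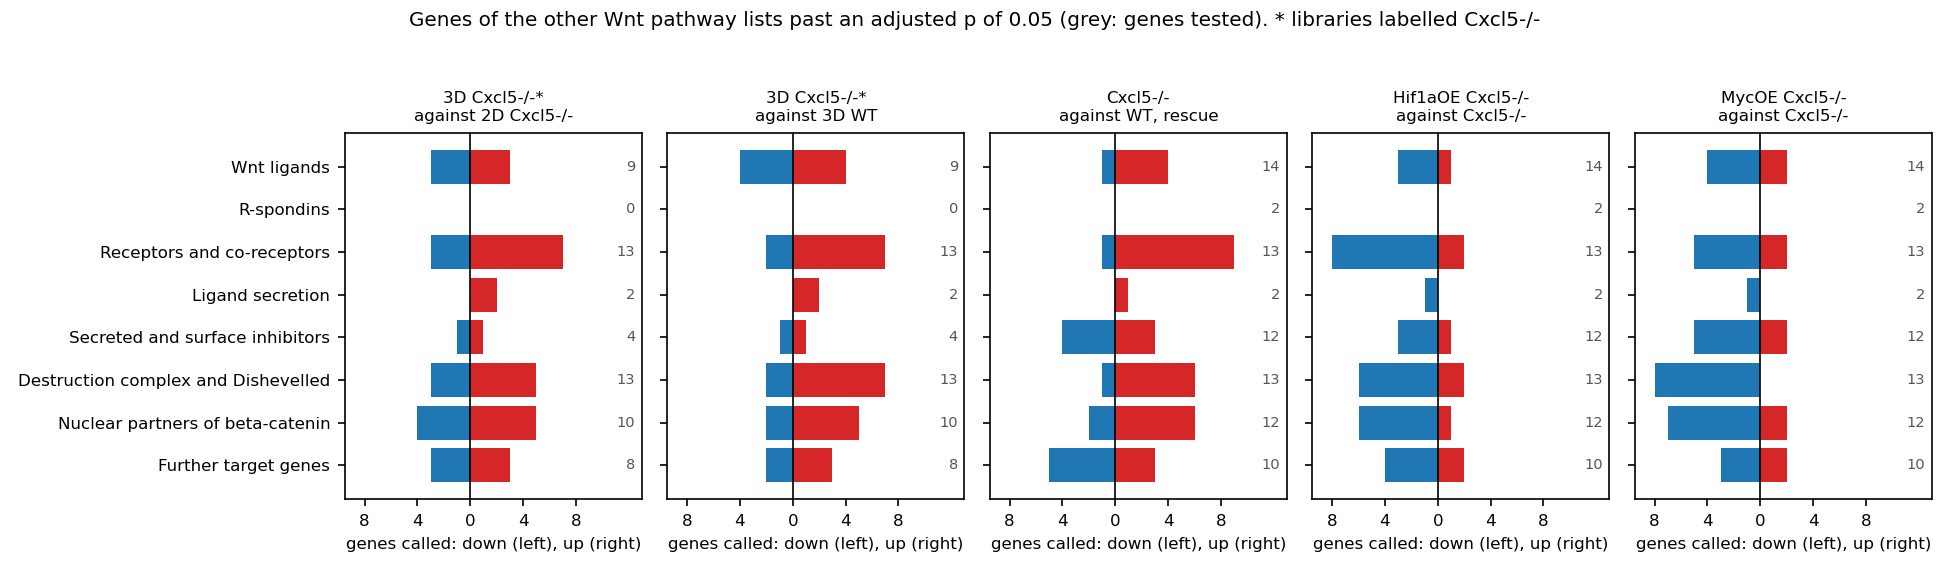
Number of genes called down (left, blue) and up (right, red) in each of the 8 lists of other Wnt pathway genes, in 5 comparisons, with the number tested in grey. In the receptor list 9 genes were up in rescue Cxcl5-/- against WT, and 8 were down in Hif1aOE against Cxcl5-/-.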

How the data were processed

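RNA from 31 samples was sequenced by the authors as stranded total RNA libraries (TruSeq, NovaSeq read pairs). HISAT2 alignment to GRCm38 was followed by StringTie, and the gene counts the authors deposited were not normalized. The annotation release and strand setting of the counting are not given in the sources used here. In the labels, each rescue sample has a different cell line name, whereas the paper has Panc02, which is used here.

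CPM and tests were computed here with edgeR 4.0.16 in R 4.3.3 (TMM scaling, filterByExpr by group, quasi-likelihood test with all groups of a table, Benjamini-Hochberg over all genes tested). A call needed an adjusted p under 0.05 and, for conditioned media, a log2 fold change over 1 in size. SE was the log2 fold change divided by the square root of F, and intervals are at 0.95. A group with 3 counts or fewer in every sample was at the floor. Python libraries were numpy 2.4.6, pandas 2.3.3 and matplotlib 3.10.9.

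Alternatives were DESeq2 1.42.0, its size factors, library totals, no filter, only the groups compared, a replicate block, each sample left out, summed symbols, no fold limit for conditioned media and, added after seeing the data, a fit without the rescue WT libraries. The tests were tested on simulated data. Total counts of 41542533 to 78498230 per sample set the counting precision, and replicates of a group differed by more than counting noise (chi-square per degree of freedom at least 8.23 in 29 pairs).

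The genes, pathway lists, markers and tests were chosen with earlier results of these data known. Pathway genes named were up to 2 up and 2 down per list and comparison with the largest change among calls without overlap and at least 50 counts on average, and the text gives part of them. Genes most like Lgr6 were also taken among those with 50 counts or more on average.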

Additional observations from a re-analysis of the deposited data

Results flagged for a closer look

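For 2 genes the difference between genotypes was not the same in 3D as in 2D culture, by the interaction term of edgeR's quasi-likelihood test, out of 6 genes of the set tested and beside 27.2% of all genes. For Axin2 the log2 fold change of Cxcl5-/- against WT was larger in 3D by 1.86 (SE 0.336, adjusted p = 0.00123), with 1.72 in 3D and -0.14 in 2D, and every one of the 3 libraries labelled as 3D Cxcl5-/- lay above every 3D WT library. For Znrf3 it was larger by 0.91 (SE 0.275, adjusted p = 0.0262), with 0.90 in 3D, and this call was lost when any of 7 of the 12 libraries was left out. The libraries labelled as 3D Cxcl5-/- also had more Cxcl5 transcript than 3D WT. The part of this in both results was not tested. Their Hif1a and Myc transcripts were lower than in 3D WT, as in rescue Cxcl5-/- against WT.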

How the results depend on the processing

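Over 12 counts of genes called, 146 of 163 alternatives stayed within 1.5 times the reported count. These include the conditioned media counts, 0 in every alternative with few of all genes called, and the contrast that chose the set. For the interaction, 8 of 12 fits with a sample left out moved further. Over 45 log2 fold changes with a fitted test, 412 of 443 alternatives kept their direction and side of the threshold. These include Lgr5 and Lef1 in rescue Cxcl5-/- against WT, whose direction was fixed by the filter and whose tests are not reported. Both also enter the count of genes called there. Of 106 alternatives to 10 log2 fold changes given as a description, 105 moved by less than the spread between replicates, but for Znrf3 in 3D WT against 2D WT (0.08) 3 of these turned below 0, to -0.13 with library totals, -0.0045 without 2D WT replicate 3 and -0.021 without 3D WT replicate 1. In 3D WT against 2D WT, 2 genes were called, 4 by DESeq2's Wald test and 4 with library totals, and 2 to 4 when samples were left out. For the interaction, 2 were called, 4 by DESeq2 and 4 with library totals, and 1 to 4 when samples were left out. In the libraries labelled as 3D Cxcl5-/- against 2D Cxcl5-/-, 3 were called, and 3 to 5 when samples were left out. In MycOE against Hif1aOE, 2 were called, 1 with library totals, 1 with only the groups compared, and 1 to 3 when samples were left out. With library totals, log2 fold changes in MycOE against Cxcl5-/- turned to -0.19 for Lgr4 and -0.034 for Ctnnb1, and leaving out samples turned Lgr6 to between -0.12 and 0.092 in libraries labelled as 3D Cxcl5-/- against 2D Cxcl5-/- and Tcf7 to between -0.23 and 0.29 in libraries labelled as 3D Cxcl5-/- against 3D WT (single values of -0.05, -0.12, -0.23 and -0.23 below 0). The cause of these changes was not tested.

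Replicate numbers showed no steady pairing of the samples (mean correlation of same-numbered deviations 0.0369, 0.0247 and 0.00408 in the 3 tables). In the conditioned media table single values ran from -0.236 to 0.359 for same-numbered samples and from -0.286 to 0.288 for the others. With the replicate block, Ctnnb1 was also called in rescue Cxcl5-/- against WT, where the count became 8 against 7, and the other 11 counts of genes in the set were unchanged.

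Over all genes, DESeq2 called 83 in M1-CM against Ctrl, 28 in M1-CM against M0-CM and 22 in M0-CM against Ctrl. In the same order, edgeR called 3, 3 and 0. The block called 1 and 1 in the first pair. In the last, library totals called 1 and only the groups compared 2. Leaving out samples gave 1 to 6 in the first pair and 0 in the last. Leaving out a library of rescue Cxcl5-/- against WT gave 7487 to 7908 calls against 12048. With library totals the percent of calls that were higher went from 50.2 to 34.7 for WT cells in 3D against 2D, 43.9 to 75.8 in libraries labelled as 3D Cxcl5-/- against 3D WT, 40.9 to 77.1 for the interaction (52.3 without a filter), 57.8 to 43.6 in Hif1aOE, 54.6 to 36.3 in MycOE and 49.5 to 36.1 in MycOE against Hif1aOE. The median of all genes in libraries labelled as 3D Cxcl5-/- against 3D WT moved from -0.04 to 0.35.

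Depth limits Lgr5, Lef1 and Nkd1 most, which had 0 to 64 counts in any library.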
